A study of Mus musculus with 6 samples.

Results

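The genes described here are abundant predicted genes of the mouse, those listed under a symbol made of Gm and a number. They were chosen from the deposited table of FPKM (fragments counted for a gene, divided by its exon length and by the mapped reads of the library) by 2 conditions, a symbol of that form and a mean above 20 FPKM over the 6 libraries. Gm15564 was left out by the rule. Of 25899 symbols in the table, 3910 had the Gm form and 114 of these passed, beside 3051 named genes that passed the same threshold. The level is therefore what chose the genes, and their high values are no finding.

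The libraries came from oocytes of aged female (AF) mice, collected after nuclear envelope breakdown (NEBD), when the first meiotic division has begun. Each sample held 200 oocytes, and the oocyte lysate was separated on a sucrose gradient and pooled into a non-polysomal (NP) part, with free RNA and RNA bound to single ribosomes, and a polysomal (P) part, with RNA carried by several ribosomes. There were 3 NP and 3 P libraries, and no other group was analysed here. The sample labels give CD1 mice at 58 weeks, and the methods of the study call them ICR mice, the stock to which CD1 belongs, with an age in months. All mice received 5 IU of pregnant mare serum gonadotropin 46 h before collection, and the oocytes were cultured for 180 min and held in cycloheximide at 0.1 mg/ml for 10 min, which keeps ribosomes on the mRNA. Before sequencing, rRNA was removed, and the RNA was reverse transcribed and amplified as a whole transcriptome. No source used here says whether the samples with different numbers came from different mice, so a p-value measures the spread between these libraries.

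A Gm symbol is a placeholder. It is given to a mouse gene model that was predicted from sequence or from transcripts and has not yet been given a name from its function, and many such symbols are later replaced. The models are of several kinds. Some are protein-coding genes, some are antisense transcripts that lie opposite a known gene, some join the exons of neighbouring genes, and some are processed pseudogenes, which are copies of an mRNA put back into the genome without introns. A short read from a shared exon or a copied sequence can fit both the predicted model and the known gene, so the level of such a model and that of its neighbour or parent need not be independent. In addition, fully grown oocytes hold a store of long-lived maternal RNA, only part of which is on polysomes at any time.

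The depth differed 110-fold between libraries. FPKM values of a gene of known length are whole multiples of what 1 read is worth, and these steps gave 1237799, 18096676 and 12131030 reads in NP replicates 1 to 3, and 163822, 1141531 and 1549317 reads in P replicates 1 to 3. Of the 114 genes, 109 gave whole reads in every library within 0.02 reads, 70 of them at the exon length of the GENCODE M21 annotation and 39 at another length found from the values. The median gene had 80, 1348 and 670 reads in the NP libraries and 3, 23 and 42 reads in the P libraries. In P replicate 1, 3 reads exceeded 20 FPKM for 61 of the 109 genes (56.0%), so a 0 there allows a level that would have passed the threshold. These limits cover counting error only. All 12 oocyte marker genes had a mean above 1 FPKM, with a summed level between 12264 and 15386 FPKM in NP and between 5187 and 15084 in P. Of 12 granulosa and cumulus cell markers, 2 had a mean above 1 FPKM, and their summed level was 10.5, 29.5 and 131 FPKM in NP replicates 1 to 3 and between 2.65 and 15.4 in P, so NP replicate 3 stood apart. The 5 blood markers in the table were at 0 in every library. The number of oocytes was the same in each sample, but for cells carried along with them, fewer cells and less RNA per cell cannot be told apart in such bulk libraries.

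In GENCODE M21, which uses the same genome build as the table (GRCm38), 106 of the 114 genes had a model, 96 under the same symbol and 10 by position under another symbol. Of these, 35 were protein coding, 53 non-coding and 18 processed pseudogenes or their transcribed form. Among the non-coding models, 36 were antisense, 8 processed transcripts and 7 long intergenic RNAs. The other 8 were not found in that annotation, and for them the whole span listed in the table stood in for the exons wherever an overlap is given. The models were short, with a median exon length of 825 bases against 3779 for the named genes. A single exon made up 22 of the 106 models (20.8%) against 1.65% of the named genes. For 17 of the 106 (16.0%), at least 50% of the exon bases lay opposite an exon of another gene, against 1.15% of the named genes, and for 14 (13.2%) at least 50% lay in an exon of another gene on the same strand, against 1.15%. Any exon overlap was found for 62 of the 106 (58.5%) against 35.6% of the named genes. Most of these traits were not particular to abundant models. Gm genes with a mean of 1 to 20 FPKM had a median exon length of 952 bases, a single exon in 24.6% and any overlap in 56.5%. At least 50% lay opposite another exon for 13.7% of them, and on the same strand for 6.07%. Overlap shares of these and of the named genes include genes without a model, by span. The abundant predicted genes also shared sequence with genes elsewhere. At least 100 bases at 95% identity were shared with another gene by 30 of the 106 models, and by 17 of the 18 pseudogenes.

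How close these copies are is seen in the coding sequence itself. The 6 pairs of stretches below each set 90 coding bases of a named gene against the same stretch of its predicted copy, and are shown to let the likeness of copy and parent be read base by base. Capitals mark the bases that differ, each sequence runs 5′ to 3′ on its own gene's strand, and all are from GENCODE M21 transcripts on GRCm38. Where the pair differed, the stretch within a single coding exon with the most differences was taken, so a read across it can tell that pair apart. Ldhb, a subunit of lactate dehydrogenase, lies here at chr6:142490500-142490589 (minus strand) and Gm5514 at chr19:21938232-21938321 (plus strand), and they differ at 5 bases.
Ldhb: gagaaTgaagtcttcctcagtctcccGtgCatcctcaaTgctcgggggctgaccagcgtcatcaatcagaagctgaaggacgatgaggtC
Gm5514: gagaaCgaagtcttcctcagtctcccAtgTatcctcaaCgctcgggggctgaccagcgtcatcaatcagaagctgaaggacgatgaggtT
Rplp0, a protein of the large ribosomal subunit, lies at chr5:115561138-115561227 (plus strand) and Gm8730 at chr8:102865352-102865441 (minus strand), with 3 differences.
Rplp0: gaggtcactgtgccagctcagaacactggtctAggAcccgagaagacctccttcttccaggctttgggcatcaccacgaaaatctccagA
Gm8730: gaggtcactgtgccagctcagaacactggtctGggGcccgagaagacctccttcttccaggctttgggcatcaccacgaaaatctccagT
Naca, which binds new protein chains at the ribosome, lies at chr10:128048245-128048334 (plus strand) and Gm6863 at chr12:96922468-96922557 (minus strand), with 1 difference.
Naca: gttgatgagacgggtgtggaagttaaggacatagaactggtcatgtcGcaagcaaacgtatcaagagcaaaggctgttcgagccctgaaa
Gm6863: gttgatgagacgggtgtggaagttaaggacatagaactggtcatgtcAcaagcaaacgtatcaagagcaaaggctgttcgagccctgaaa
Rpl15, also of the large ribosomal subunit, lies at chr14:18269015-18269104 (minus strand) and Gm4294 at chr12:12023564-12023653 (plus strand), with 1 difference.
Rpl15: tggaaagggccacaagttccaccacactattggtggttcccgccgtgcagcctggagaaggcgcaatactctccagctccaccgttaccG
Gm4294: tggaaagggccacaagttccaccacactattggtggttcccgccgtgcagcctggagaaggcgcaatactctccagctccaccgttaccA
Rps27, of the small ribosomal subunit, lies at chr3:90213212-90213301 (minus strand) and Gm9846 at chr9:114982612-114982701 (minus strand), with no difference here or over the 341 bases they share.
Rps27: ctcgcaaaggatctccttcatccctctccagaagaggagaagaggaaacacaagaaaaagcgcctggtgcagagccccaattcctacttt
Gm9846: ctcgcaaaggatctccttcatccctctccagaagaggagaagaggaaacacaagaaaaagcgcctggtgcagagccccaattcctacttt
Sap18, a subunit of a histone deacetylase complex, lies at chr14:57801495-57801584 (plus strand) and Gm10094 at chr8:95825604-95825693 (plus strand), with no difference here or over 780 shared bases.
Sap18: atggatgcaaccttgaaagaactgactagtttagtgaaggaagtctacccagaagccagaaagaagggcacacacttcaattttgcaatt
Gm10094: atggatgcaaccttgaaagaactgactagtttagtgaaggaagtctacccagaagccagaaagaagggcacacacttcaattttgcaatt

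The 114 genes ranged from 20.1 to 1219 FPKM in their mean, with a median of 53.4 against 52.3 for the named genes. The 3 highest held 22.9% of the summed mean FPKM of the group and the 15 highest held 56.7%. Protein-coding models held 40.2%, non-coding models 33.8%, models outside GENCODE M21 16.0% and pseudogenes 9.95%. At the threshold, Gm16172 (20.1 FPKM), Gm12868 (20.2) and Gm6768 (20.3) were just inside, and Gm16220 (19.7), Gm20628 (19.5) and Gm16726 (19.0) just outside.

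**Figure D1:**
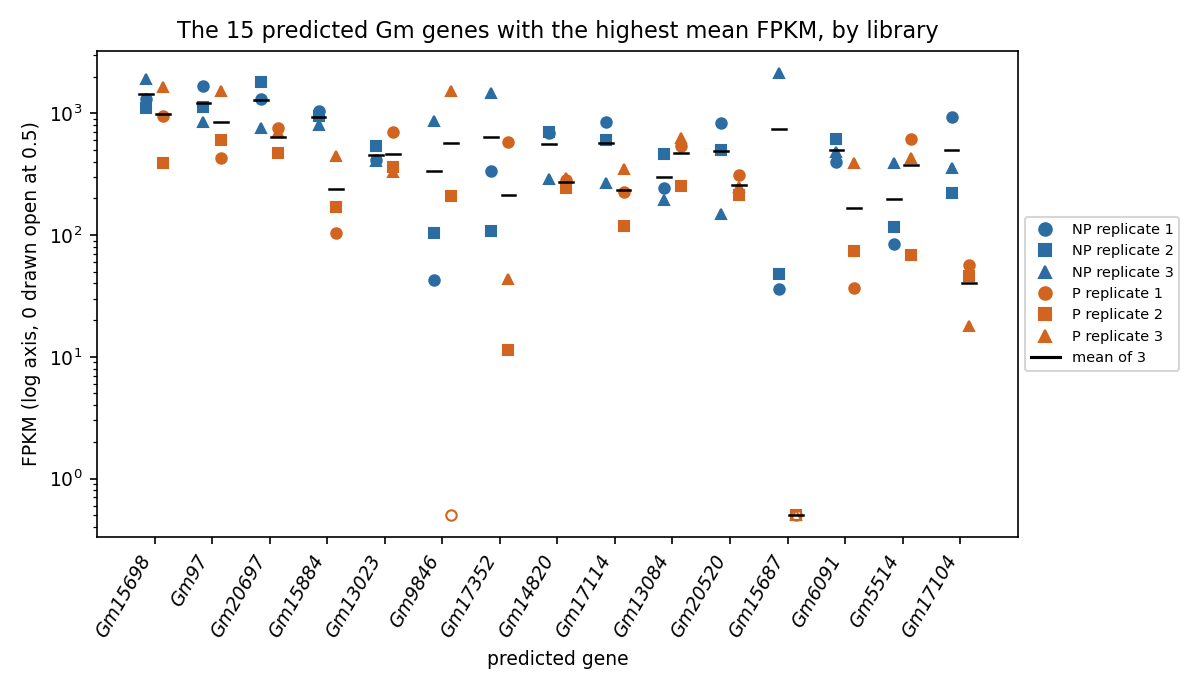
FPKM (log axis) of the 15 predicted genes with the highest mean, in the 3 NP (blue) and 3 P (orange) libraries, with the replicate number by marker shape and the mean of each fraction as a black bar. Gm15698 and Gm97 were above 380 FPKM in every library, while Gm15687 reached 2145 FPKM in NP replicate 3 and was listed at 0 in all 3 P libraries.

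The highest level was that of Gm15698 (chr11:88964658-88966931), a protein-coding gene that GENCODE M21 calls Elobl, after its likeness to a subunit of elongin. It stood at 1309, 1103 and 1919 FPKM in the NP libraries and at 958, 389 and 1634 in the P libraries, and the fractions overlapped. Gm97 (chr19:11697055-11711874), now Oosp3, belongs to a family of oocyte-secreted proteins. Its levels were 1677, 1115 and 841 FPKM in NP, against 430, 598 and 1509 in P, which rested on 58 to 16605 reads, and the fractions overlapped. Neither passed the limma test of P against NP given below. Gm1070 (chr6:71293765-71302718), a long intergenic RNA that overlaps no exon of another gene, had one of the steadiest levels, with 112, 142 and 181 FPKM in NP, against 151, 180 and 193 in P. Its log2 ratio of P to NP was 0.29 (SE 0.72, adjusted p = 0.85 by limma with Benjamini-Hochberg adjustment), and P was the higher of the same-numbered libraries in all 3 numbers. That pattern held for 2 of the 114 genes and for 2.09% of all genes tested, the other being Gm11646 (log2 ratio 0.83, SE 1.01, adjusted p = 0.65 by limma).

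Further genes among the 15 highest also overlapped between the fractions. Gm14820, an antisense model with 36.6% of its exon bases opposite Suv39h1, a histone methyltransferase gene, was at 682, 696 and 289 FPKM in NP and at 285, 243 and 296 in P. Gm17352, which is not in GENCODE M21, was at 333, 108 and 1463 FPKM in NP and at 585, 11.5 and 43.6 in P.

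Several of the protein-coding models belong to a family. By the symbols of RefSeq (GRCm38.p6), 6 of the 114 genes were PRAME-like genes, of which many are transcribed in oocytes and early embryos. They were looked up after the values had been seen. Of 37 genes of this family in the table, counted with the Oog genes, 15 had a mean above 20 FPKM, and 17 carried a Gm symbol. Gm13023 (Pramel25, chr4:143789352-143795575) stood at 410, 543 and 406 FPKM in NP and at 698, 360 and 329 in P, and the fractions overlapped. Gm13084 (Pramel26, chr4:143809245-143816093) was at 244, 460 and 194 FPKM in NP and at 537, 253 and 632 in P, and the fractions overlapped. Gm2042 (chr12:88175589-88181894), a locus that RefSeq calls Pramel51, was at 180, 349 and 140 FPKM in NP and at 190, 221 and 102 in P. Gm13125 (Pramel15) had 85.1, 174 and 189 FPKM in NP, against 115, 81.2 and 212 in P. In each of these 4 genes the range over the NP libraries overlapped that over the P libraries.

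The other PRAME-like genes among the predicted genes described here were carried by fewer libraries. Gm13103 (Pramel27) was highest in NP replicate 2, at 162 FPKM, and between 0 and 44.2 FPKM in the others. Gm13089 (Pramel23) was at 355 FPKM in P replicate 3, on 994 reads, and between 0.365 and 4.02 FPKM in the other 5 libraries, so 95.9% of its summed level came from 1 library. Among the 19 tested genes of the family, the adjusted p by limma was 0.40 or higher. The family's genes share long stretches. Gm2042 shared 2451 bases at 98.8% identity with Oog1, Gm13084 shared 1730 bases at 98% with Oog2, and Gm13023 shared 1811 bases at 95.6% with C87977, so the split of reads between them is uncertain.

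The models that lie opposite a known gene followed that gene closely in some pairs. For 20 of the predicted genes, at least 50% of the bases lay opposite exons of a gene with a value, which gave 21 pairs. The bases were those of exons for 16 of them and of the span for the 4 outside GENCODE M21. The clearest was Gm20721, with 99.0% of its exon bases opposite Gnas, the gene of a G protein subunit. Gm20721 stood at 46.3, 53.2 and 90.8 FPKM in NP and at 41.1, 32.5 and 49.1 in P, and Gnas at 6.57, 7.23 and 12.2 in NP and at 5.46, 4.39 and 6.52 in P. The level of Gm20721 was between 7.04 and 7.54 times that of Gnas in every library. In reads, Gm20721 had 85, 1430, 1634, 10, 55 and 113 in the 6 libraries and Gnas had 91, 1463, 1655, 10, 56 and 113. In total the model on the other strand had 98.2% as many reads as Gnas. The study made its libraries from amplified cDNA with a DNA library kit, and its methods name no step that keeps the strand. The strand setting of the counting is not given in the sources used here either. Without strand, the reads of a gene and of its antisense partner cannot be told apart, here or in the other pairs on opposite strands. The same 90 bases at chr2:174346296-174346385, shown for the overlap, read as follows on each strand, coding in Gnas (plus strand) and transcribed in the model of Gm20721 (minus strand).
Gnas: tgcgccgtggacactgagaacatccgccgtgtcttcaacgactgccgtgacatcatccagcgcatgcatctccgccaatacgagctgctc
Gm20721: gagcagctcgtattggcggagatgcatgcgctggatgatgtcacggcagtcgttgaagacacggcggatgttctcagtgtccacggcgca

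Of the 20 opposite-strand pairs with whole reads for both genes, the predicted gene had no more reads than the known gene in all 6 libraries in 19. The exception was Gm17120, with 6285 reads against 1425 on Slc6a20a in NP replicate 2. The predicted gene's reads were a median of 19.9% of the known gene's, and in 16 of the 20 pairs this share was above the share of exon length. Gm20697 (chr12:105216757-105217583) lies wholly opposite exons of Tcl1, a gene with a high level in oocytes whose protein binds the kinase AKT. It was at 1312, 1809 and 759 FPKM in NP and at 757, 475 and 698 in P, and Tcl1 was at 899, 927 and 458 in NP and at 625, 293 and 508 in P. Every NP library of Gm20697 was above every P library, by a narrow margin in the case of NP replicate 3 and P replicate 1, and the ratio to Tcl1 stayed between 1.21 and 1.95. Gm17178 has 99.4% of its exon bases opposite Aspscr1, which tethers a glucose transporter inside the cell. It stood at 281, 370 and 123 FPKM in NP and at 51.3, 29.4 and 30.7 in P, with every NP library above every P library, and Aspscr1 was at 147, 161 and 59.9 in NP and at 53.7, 17.1 and 17.5 in P. A steady pair at a lower level was Gm19553 and Pou5f1, the gene of the pluripotency factor OCT4, with a ratio between 0.878 and 1.29 over the 5 libraries with both above 0. Gm19553 was at 70.3, 57.6 and 23.0 FPKM in NP and at 0, 8.87 and 1.31 in P, against 54.4, 59.1 and 18.2 in NP and 2.71, 10.1 and 1.43 in P for Pou5f1. Both were lower in every P library than in any NP library.

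Some opposite-strand models did not keep a steady ratio to the gene they face. Over the 20 pairs with both genes above 0 in at least 4 libraries, the ratio varied by a median of 2.66-fold, and by no more than 2-fold in 6. Gm13999 was between 0.597 and 3.56 times the level of Mapkbp1. Gm11175, wholly opposite Jund, had too few values for this count. It was above 0 in NP replicates 1 and 2 alone, at 110 and 28.8 FPKM, where Jund stood at 21.3 and 7.14, and Jund was at 0.115 FPKM in NP replicate 3 and at 0 in P.

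**Figure D2:**
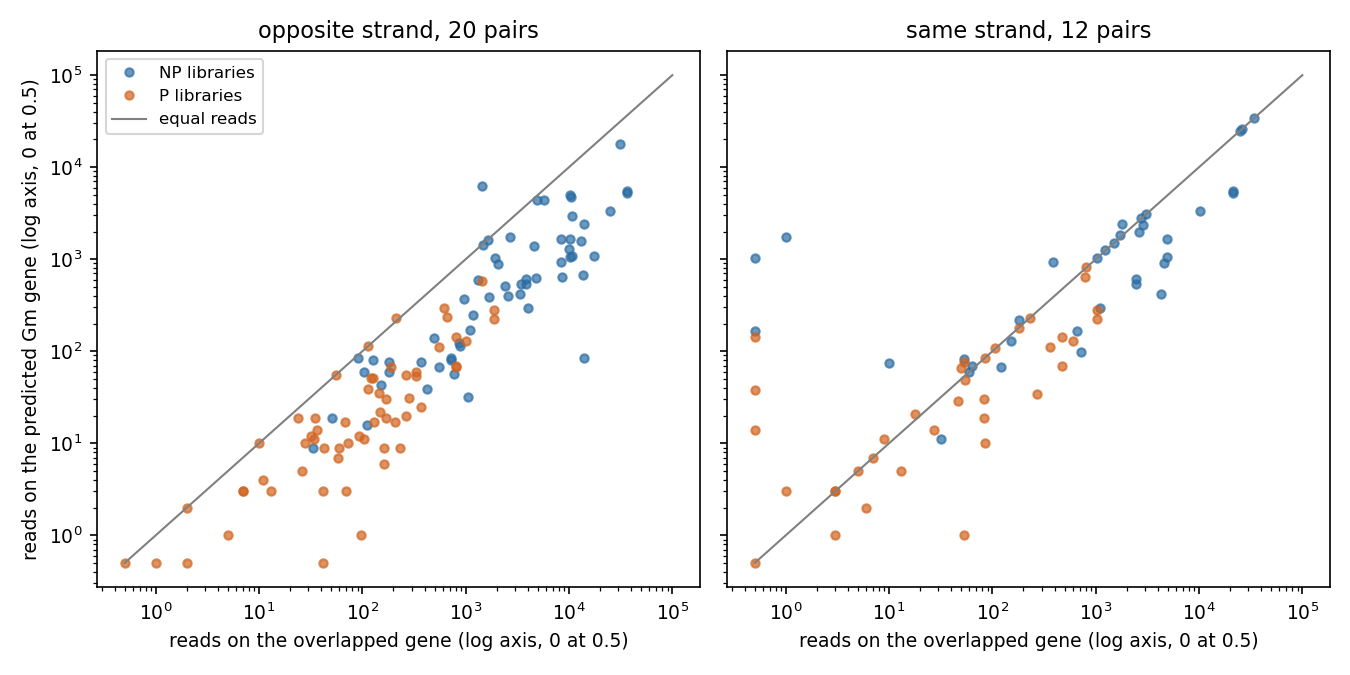
Reads counted for a predicted gene (vertical, log axis) against reads counted for the gene whose exons take up at least 50% of its exon bases, or of its span where it has no GENCODE M21 model (horizontal, log axis), 1 point a library and pair, NP in blue and P in orange, with 20 pairs on opposite strands (left) and 12 on the same strand (right). On the left the predicted gene was at or under the line of equal reads in all 6 libraries for 19 of 20 pairs, and on the right 4 of 12 pairs lay within 5% of equal reads in total.

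On the same strand, 14 genes had at least 50% of their bases inside exons of a gene with a value, 3 of them by span. In 4 of the 12 pairs with whole reads for both, the reads in total were within 5% of each other. Gm20605 and Lrch4 had 1026 and 1023 reads in NP replicate 1, 25873 and 25868 in NP replicate 2, and equal counts in the other 4 libraries (1517, 3, 180 and 813). Their levels followed at 186, 320, 28.0, 4.10, 35.3 and 118 FPKM for Gm20605 and 211, 364, 31.9, 4.67, 40.2 and 134 FPKM for Lrch4, a ratio between 0.879 and 0.882. Gm20458 and Dbndd2 had equal reads in 4 libraries (60, 3, 7 and 85), but in NP replicate 3 the predicted gene had 74 against 10. Gm16039, which GENCODE M21 calls Gm45062, had 99.7% of the reads of Glcci1, and Gm20388 had 102.8% of those of Galnt2, an enzyme that starts sugar chains on proteins. Gm17114 and Gm20520, both among the 15 highest, overlap each other and exons of Ccdc24 on the same strand, and lie opposite exons of Slc6a9, a glycine transporter of the oocyte. Gm17114 was at 851, 598 and 268 FPKM in NP and at 227, 118 and 351 in P, and Slc6a9 at 607, 391 and 166 in NP and at 203, 139 and 237 in P. A pair that did not follow was Gm20425 and Trf, where the predicted gene had a mean of 29.1 FPKM and Trf, the gene of transferrin, had 1 read in NP replicate 2 and was listed at 0 in the other 5 libraries.

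The pseudogenes were compared with the named gene with which they share the longest stretch. Of 16 such pairs, the pseudogene had the higher mean FPKM in 4. The ratio of pseudogene to named gene varied by a median of 3.86-fold over the libraries with both above 0, and by more than 2-fold in every pair. Gm5514, the copy of Ldhb shown above (98% identity over 1002 bases), was at 84.5, 117 and 389 FPKM in NP and at 618, 68.7 and 432 in P. Ldhb was at 507, 695 and 1301 in NP and at 3569, 527 and 2493 in P, and the same 2 P libraries were highest for both. Gm9846, a retrocopy that GENCODE M21 lists as protein coding under the name Rps27rt, had 42.6, 105 and 862 FPKM in NP, against 0, 208 and 1509 in P. Rps27 had 402, 582 and 3665 in NP and 192, 907 and 5693 in P, and replicate 3 was the highest of each fraction for both genes. Gm10094 (Sap18b), also listed as protein coding and, like Gm9846, outside the 16 pairs, was at 111, 273 and 225 FPKM in NP. In P it was at 15.7, 80.9 and 129, and its level was between 0.570 and 1.37 times that of Sap18. Gm5805, a copy of Rps14, stood at 374, 218 and 113 FPKM in NP and at 40.2, 3.84 and 43.9 in P, with Rps14 at 1100, 796 and 910 in NP and at 150, 13.3 and 234 in P. In both genes every NP library was above every P library. Gm5805 was between 0.124 and 0.340 times the level of Rps14.

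Other pairs differed more in ratio. Gm6091, of 165 bases, shared all but 1 of them with Tk1, a thymidine kinase, and was at 397, 618 and 477 FPKM in NP and at 37.0, 74.3 and 391 in P, while Tk1 was between 3.11 and 19.3 in NP and between 1.17 and 6.58 in P. Gm6091 was thus 26.0 to 153 times higher than Tk1 per length, and its values in P replicates 1 to 3 rested on 1, 14 and 100 reads. Gm7936, a copy of Bloc1s1, was at 410 FPKM in P replicate 3 on 238 reads and between 0 and 4.42 FPKM elsewhere, whereas Bloc1s1 was at 426 FPKM there and between 21.8 and 129 elsewhere. How the authors' counting treated reads that fit more than 1 place is not given in the sources used here, so the levels of copies and parents are uncertain.

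**Figure D3:**
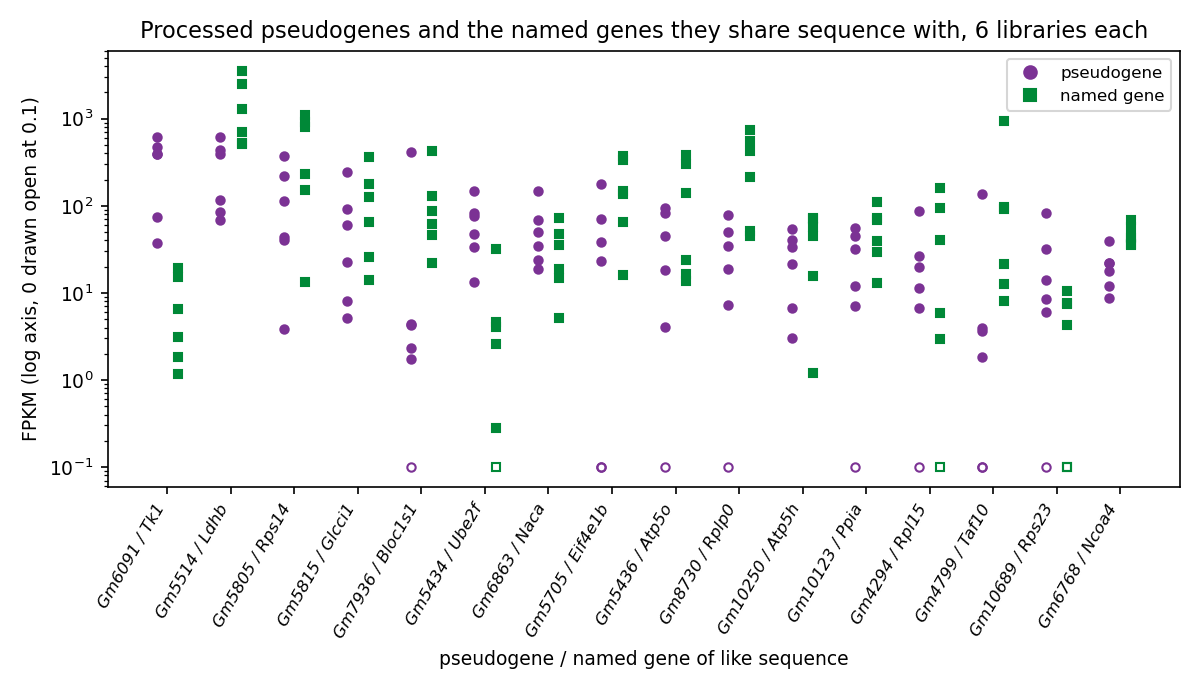
FPKM (log axis) of 16 processed pseudogenes (purple circles) and of the named gene each shares its longest stretch with (green squares), 1 point a library, with open symbols for values of 0. The pseudogene had the higher mean in 4 pairs, with the widest gap for Gm6091 over Tk1.

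The design sets P against NP, which asks which RNAs were on polysomes at this stage. The ratio was taken on log2(FPKM + 1), where the added 1 makes the ratio of a low gene too small. All 114 genes passed the filter of a mean above 1 FPKM in either fraction. In this comparison 11 of them passed the threshold (limma, Benjamini-Hochberg adjusted p under 0.1), where 1.82% of all 10578 genes tested and 159 of the 3051 named genes did. All 11 were lower in P, as were 1.8% of all genes, and none was higher, against 0.0189%. At an unadjusted p under 0.05 there were 39 of the 114 (34.2%), against 27.9% of the named genes and 15.8% of all genes tested. Of the 159 named genes, 158 were lower. These counts describe genes that the level had chosen. Of the 114, 69 had a mean above 20 FPKM in both fractions, 41 in NP alone and 4 in P alone, and 9 of the 11 passed the level through NP alone, so a difference between the fractions was built into their choice and the counts are no support for one. The median log2 ratio of P to NP was -1.70 for the predicted genes, -1.26 for the named genes and -1.03 for all genes tested. Without P replicate 1 the order turned, with -1.25 for the predicted genes and -1.35 for the named genes. The sign was negative for 99 of the 114 (86.8%), for 83.4% of the named genes and for 80.1% of all genes. Every NP library was above every P library for 36 of the 114 genes (31.6%), against 23.2% of all genes tested and 31.8% of the named genes, and every P library above every NP library for none, against 0.633%. The protocol splits each lysate into both fractions, so NP and P of the same number are likely to be of 1 lysate, although no source says so of the numbers. With the replicate number as a block, 25 of the 114 genes passed, all lower in P, against 6.31% of all genes tested (6.27% lower in P) and 14.3% of the named genes (limma, Benjamini-Hochberg adjusted p under 0.1). The 25 held all 11 and 14 others, among them Gm15884, Gm5805, Gm6091, Gm17178 and Gm19553.

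The calls of the fit without the block, of predicted genes and of all genes alike, depended on each library. The count of 11 fell to 0 in limma when any 1 of the 6 libraries was left out (between 22 and 39 genes at an unadjusted p under 0.05), and of all 10578 genes 55 then passed without P replicate 3 and 0 without any of the other 5 (between 1088 and 2387 at an unadjusted p under 0.05). It was also 0 under each of 3 rescalings of the libraries (18.4% to 21.9% of the predicted genes at an unadjusted p under 0.05, against 13.2% to 13.4% of the named genes and 7.13% to 7.63% of all genes), where 3, 4 and 6 of all genes passed. Under the rescalings, 61.4% to 63.2% of the 114 genes were lower in P by sign, against 57.6% to 61.3% of the named genes and 49.9% to 63.7% of all genes. The rescalings moved the median of all genes tested from -1.03 to between -0.48 and 0.0027, and that of the 114 genes from -1.70 to between -0.80 and -0.64.

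**Figure D4:**
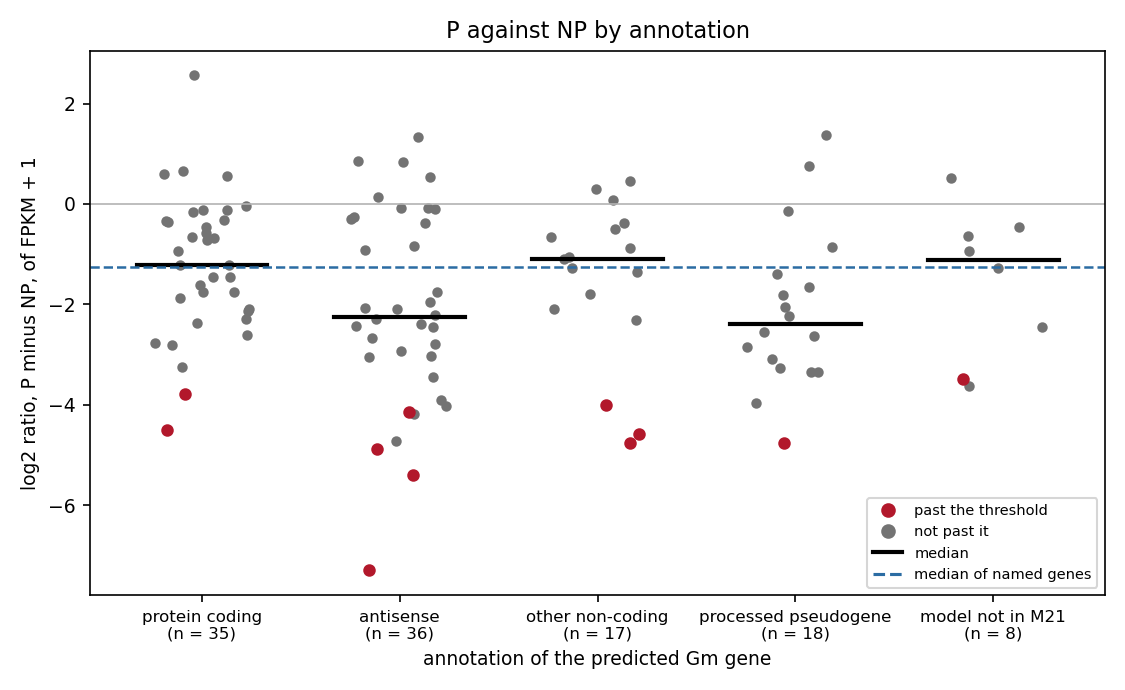
Log2 ratio of P to NP, on FPKM + 1, for each of the 114 predicted genes by its GENCODE M21 annotation, with genes past the limma threshold in red, the median of each class as a black bar and the median of the named genes as a dashed line at -1.26. Antisense models (-2.25) and pseudogenes (-2.39) had lower medians than protein-coding models (-1.22), and the ranges of all classes overlapped.

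By annotation, the median log2 ratio was -1.22 for the 35 protein-coding models, -2.25 for the 36 antisense models, -1.10 for the 17 other non-coding models and -2.39 for the 18 pseudogenes. Of the 11 genes past the threshold, 2 were protein coding, 7 non-coding, 1 a pseudogene and 1 outside GENCODE M21. Differences between the classes were not tested. Without strand, the values of antisense models where they overlap an exon may hold reads of the gene opposite. In P replicate 1, the shallowest library, 8 of the 18 pseudogenes, 18 of the 53 non-coding models and 7 of the 35 protein-coding models were at 0. The part of its depth in the values by class was not tested.

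The lowest p was that of Gm15687 (chr6:145056389-145059892), an antisense model of 269 exon bases inside Bcat1, an enzyme of branched amino acid breakdown, with no exon base in common. It was at 36.0, 48.1 and 2145 FPKM in the NP libraries, on 12, 234 and 6999 reads, and at 0 in all 3 P libraries. The fractions did not overlap, but 96.2% of the level came from NP replicate 3. With 3 reads over the P libraries as the floor, the pooled level was at least 219-fold lower in P than in NP, and at least 12.1-fold lower without NP replicate 3. In P replicate 1 alone, 3 reads would be worth 68.1 FPKM, more than the levels of NP replicates 1 and 2. The fitted log2 ratio was -7.30 (SE 1.36, adjusted p = 0.0138 by limma), which depends on the pseudocount and is no bound. Bcat1 itself was between 23.1 and 27.7 FPKM in NP and between 1.31 and 2.63 in P.

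Gm17104 (chr7:30564737-30565356) has no model in GENCODE M21, and 52.3% of its span lies opposite exons of U2af1l4, a splicing factor gene. It was at 928, 221 and 356 FPKM in NP and at 56.7, 46.1 and 18 in P. The P values rested on 3, 17 and 9 reads, and every NP library was above every P library. The log2 ratio was -3.49 (SE 0.82, adjusted p = 0.0499 by limma). U2af1l4 was at 204, 145 and 100 FPKM in NP and at 20.9, 15.7 and 10.2 in P, with a log2 ratio of -3.18 and an adjusted p of 0.10 by limma. Gm12130 (chr11:38493330-38520013), a long intergenic RNA with no overlap, was at 263, 133 and 92.9 FPKM in NP and at 19.1, 6.85 and 4.04 in P, on 2 to 5 reads in P. Its log2 ratio was -4.01 (SE 0.98, adjusted p = 0.0592 by limma). Gm166 (chr7:127582384-127588595), the coiled-coil gene now named Ccdc189, was at 212, 195 and 216 FPKM in NP and at 14.4, 62.5 and 2.55 in P, the tightest NP values of the 11. Its log2 ratio was -3.78 (SE 1.0, adjusted p = 0.0739 by limma).

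**Figure D5:**
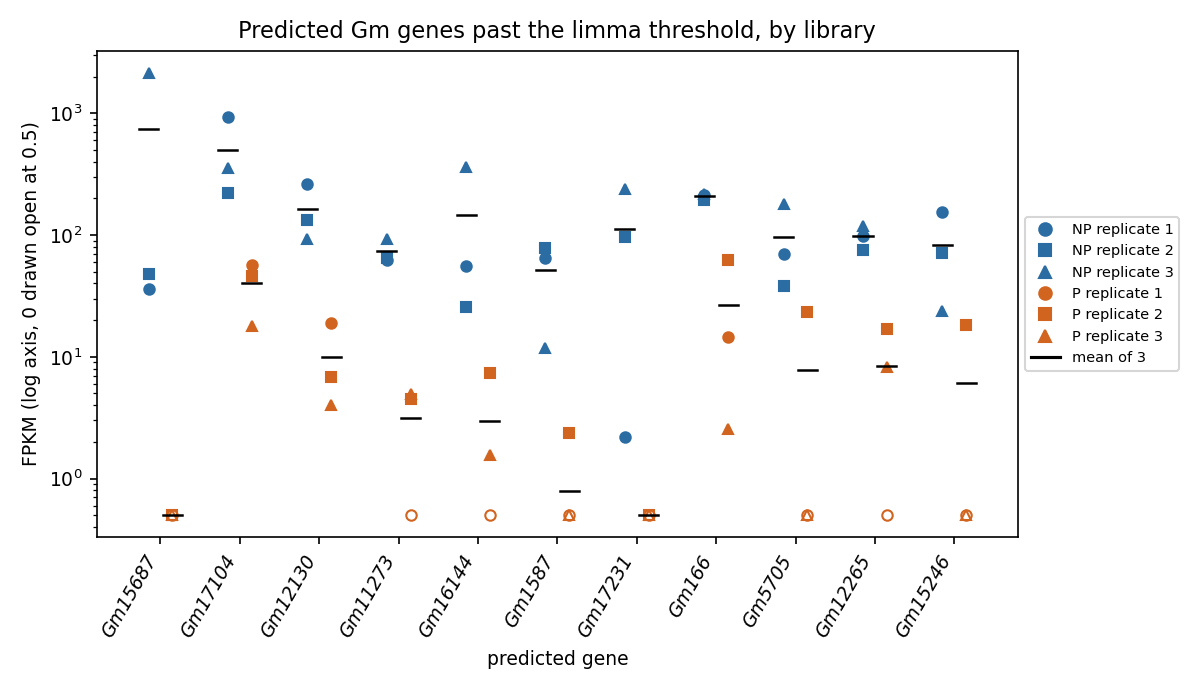
FPKM (log axis) of the 11 predicted genes past the limma threshold in the 3 NP (blue) and 3 P (orange) libraries, with the mean of each fraction as a black bar and values of 0 drawn as open symbols at 0.5. Every NP library lay above every P library for each gene, and 8 of the 11 were at 0 in at least 1 P library.

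The other 7 genes past the threshold were all at 0 in P replicate 1. Gm11273 (chr13:21501029-21501418) shares 390 bases at 99.2% identity with Cox5b, a subunit of cytochrome c oxidase. GENCODE M21 lists it as protein coding and RefSeq as a pseudogene. It was at 62.1, 64.8 and 93.2 FPKM in NP and at 0, 4.49 and 4.96 in P, and Cox5b was at 462, 423 and 814 in NP and at 43.1, 21.7 and 36.5 in P. Cox5b passed the threshold as well (adjusted p = 0.0138 by limma). Gm5705, a copy of the oocyte cap-binding gene Eif4e1b at 95% identity, was at 70.4, 37.9 and 179 FPKM in NP and at 0, 23.4 and 0 in P. Eif4e1b was at 148, 334 and 373 in NP and at 16.2, 64.5 and 137 in P, with an adjusted p of 0.20 by limma.

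Gm12265, opposite Tom1l2, a gene of vesicle sorting, was at 98.4, 75.3 and 118 FPKM in NP and at 0, 16.8 and 8.27 in P. Tom1l2 was at 71.6, 54.0 and 129 in NP and at 29.3, 16.1 and 11.9 in P (adjusted p = 0.29 by limma). Gm17231, an antisense model at Arid3b, was at 2.19, 96.5 and 238 FPKM in NP, the first of them on 3 reads, and at 0 in all P libraries. Its pooled level was at least 155-fold lower in P, and at least 95.2-fold lower without NP replicate 3, which held 70.7% of its level. Pooling weighs the libraries by depth, so the second value rests mostly on NP replicate 2. The 2.19 FPKM of NP replicate 1 was not far above the pooled P floor of 0.950 FPKM, so these folds do not hold for each library. Gm16144, antisense at Anxa2, was at 55.7, 25.7 and 359 FPKM in NP and at 0, 7.41 and 1.56 in P, while Anxa2 was highest in NP replicate 1, at 224. Gm1587 was at 65.2, 77.7 and 11.7 FPKM in NP and at 0, 2.35 and 0 in P. Gm15246 was at 154, 70.6 and 23.6 FPKM in NP and at 0, 18.4 and 0 in P.

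A gene of high level that was lower in every P library but passed only with the replicate block was Gm15884 (chr6:124715573-124718831), an antisense model with 21.9% of its exon bases opposite Phb2, a prohibitin of the mitochondrial inner membrane. It was at 1035, 956 and 799 FPKM in NP and at 104, 169 and 443 in P, with a log2 ratio of -2.21 (SE 0.65, adjusted p = 0.11 by limma, and 0.057 with the block). Phb2 was at 966, 843 and 871 in NP and at 102, 120 and 212 in P, and its adjusted p was 0.050.

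More than 50% of the summed FPKM came from 1 library for 38 of the 114 (33.3%), against 18.7% of the named genes, and more than 90% for 5 (4.39%) against 1.41%. NP replicate 3, the library with the highest level of granulosa and cumulus markers (131 FPKM in sum, 3 of 12 above 0), was that library for 15 of the 38. The part of other cells in these values was not tested. The library was NP replicate 2 for 8, NP replicate 1 for 6, P replicate 3 for 5 and P replicate 1 for 4. Without its own highest library, 78 of the 114 genes (68.4%) kept a mean above 20 FPKM over the other 5. Values above 0 in all 6 libraries were found for 70 genes (61.4%) against 84.6% of the named genes, and 34 genes were at 0 in P replicate 1, 9 in P replicate 2 and 18 in P replicate 3. In NP only replicate 3 had any at 0, with 3 genes.

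As a share of all FPKM, the 114 genes held 2.91%, 2.84% and 3.26% in the NP libraries and 2.85%, 2.57% and 3.33% in the P libraries. The means were 3.00% ± 0.229 (SD, n = 3) and 2.91% ± 0.387, and the difference was smaller than the spread between libraries (exact permutation test, two-sided, p = 0.9, where 3 against 3 cannot go below 0.1). The shares of the 2 fractions overlapped. The mitochondrially encoded genes, Lars2 and Gm15564 together held between 0.167% and 0.40% of FPKM in NP and between 5.05% and 9.81% in P.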

How the data were processed

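RNA-seq was made from 3 NP and 3 P libraries of AF oocytes. Per the labels, the authors used Trim Galore 0.4.1 for trimming, HISAT2 2.0.5 for alignment (GRCm38) and Seqmonk 1.40.0 for the FPKM values that were deposited. For annotation release, strand setting and reads with several places, the setting is not given in the sources used. A low FPKM value rests on few reads, and on fewer in a shallow library. The authors' means per fraction were not used.

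Of 25965 rows, 66 repeated a symbol, and the row with the highest mean was kept. The genes and lists were chosen with earlier results of these data known. Models were matched to GENCODE M21 by symbol, else by 90% of their span, and transcripts were compared with BLAST 2.17.0, leaving out genes that overlap in the genome. The test of P against NP was limma (version 3.58.1, run under R 4.3.3), two-sided, with log2(FPKM + 1) as input, a mean-variance trend and Benjamini-Hochberg adjustment. A run on simulated data had equal noise in every library and no difference in depth. It checked the code and says nothing on how the fit behaves with these libraries. Genes named in the text are the 15 with the highest mean, all past the threshold, those with the largest ratios changed one way in every number, the 3 on each side of the FPKM threshold, those sharing the longest sequence, and their partners. The PRAME-like genes and the pairs with the steadiest, least steady or most similar values were picked outside this rule after their values were seen. Alternatives were other pseudocounts, filters, scalings and thresholds, no trend, the replicate number as a block, and each library left out. Summaries were made in Python 3.11.15. The protocol pools the fractions of each lysate into NP and P, which is where the pairing by replicate number comes from. The deviations of same-numbered libraries from their group means correlated at 0.063, 0.099 and 0.116 across genes, and each library correlated best with its own number. The fit without the block is the main one, and the blocked result is given where it changes a count or a call of a predicted gene.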

Additional observations from a re-analysis of the deposited data

How the results depend on the processing

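The number of predicted genes past the threshold, 11 as reported, depended on nearly every choice. It was 2 with a pseudocount of 0.1, 7 with 5, 0 with no filter on low values (28 at an unadjusted p under 0.05), 1 without the trend and 2 at an adjusted p of 0.05, where 69, 156, 1, 15 and 65 of all genes passed, against 192 as reported. It was 0 with median-of-ratios scaling, quantile normalization or a common FPKM sum, and between 0 and 0 when any library was left out. With a filter of 5 FPKM it was 10, and 210 of all genes passed. With the replicate number as a block, which pairs NP and P of the same number, it was 25, where 6.31% of all genes tested passed. The block ended none of the 11 calls.

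The median log2 ratio of the predicted genes (-1.70) was -1.14 with a pseudocount of 5, -0.80 with median-of-ratios scaling, -0.64 with quantile normalization and -0.79 with a common FPKM sum, and that of the named genes (-1.26) was -0.31, -0.22 and -0.36 under the 3 scalings. Leaving out a library gave -1.76 to -1.25 for the predicted genes and -1.52 to -1.14 for the named genes, with the predicted genes the higher only without P replicate 1. With the 4 genes at 0 in every P library set to a floor of 3 reads where reads were known, the median stayed at -1.70. These genes remained below that median, so it could not move, and this is no check of its stability. The 11 log2 ratios stayed negative under each of their 15 alternatives, and 31 of those 165 values were past the threshold. The share of FPKM, lower in P by 0.0872 percentage points, became 0.136 points higher with the mitochondrially encoded genes, Lars2 and Gm15564 out of the total, and ran from -0.295 to 0.0872 points when a library was left out, positive without NP replicate 3 (0.0435) or P replicate 2 (0.0872). A mean above 50 FPKM left 62 genes, and a median above 20 left 81, of which 16.0% had over 50% of their level in 1 library. At 200 bases and 98% identity, 19 genes shared sequence. Depth limits P replicate 1 most, and for many genes a 0 there cannot tell a low level from absence. Why the counts moved was not tested.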
